A study of Mus musculus with 38 samples.

Results

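The transcripts described here encode 10 regulators of fuel use and mitochondrial content in the heart: the receptors Ppara, Ppard and Pparg of the PPAR family, the receptors Esrra, Esrrb and Esrrg of the ERR family, the shared partner receptor Rxra, and the coregulators Ppargc1a, Ppargc1b and Nrip1. They were taken by gene symbol from a table of 29564 genes, and all 10 were among the 13765 genes with enough counts to be tested. RNA was sequenced from the left ventricle of 38 wild-type C57BL6 mice, 1 library per mouse. The labels call the mice female and give no age, while the study's methods describe male C57BL/6J mice. The non_failing group (n = 8) held control hearts of mice given vehicle. The HFpEF+Veh group (n = 8) had heart failure with preserved ejection fraction, brought about by a high-fat diet together with L-NAME, an inhibitor of nitric oxide synthesis, and was given vehicle. The HFpEF+TYA-018 group (n = 11) had the same regimen and received TYA-018, a small molecule inhibitor of the deacetylase HDAC6, and the HFpEF+SGLT2i group (n = 11) had it and received empagliflozin, an inhibitor of the glucose transporter SGLT2. There was no group on normal diet that received a drug, so each drug was measured only on the background of the model.

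PPAR receptors are switched on by fatty acids and pair with RXR to induce genes for the uptake and oxidation of fat, with PPARα the best known of them in the heart and PPARγ best known in adipocytes and also present in endothelial cells and macrophages. ERR receptors have no known natural ligand that is generally accepted, and drive genes of the citrate cycle, the respiratory chain and energy transfer. PGC-1α and PGC-1β, encoded by Ppargc1a and Ppargc1b, are coactivators that lend their activity to both families, and NRIP1 (RIP140) is a corepressor that acts against them. The activity of all of these proteins depends on ligands and modifications that a transcript level does not report.

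The stretches before the annotated start sites of 4 members are shown because these genes carry the results that follow: Rxra is the only member with a call, Esrrb and Esrrg are the pair that varied most closely together, and Ppargc1a had the highest coefficient of variation in TPM, 50.4% over the 38 hearts. They come from RefSeq on GRCm38.p6 and run 5′ to 3′ on the strand of the gene. Capitals mark AGGTCA, the core that nuclear receptors bind, or AAGGTCA, the core of an ERR site that contains it, in Rxra, and TGACG, one arm of a cAMP response element, in Ppargc1a and Esrrb, on either strand. Rxra is chr2:27709042-27709291 on the plus strand, before the one of its annotated starts that has these motifs (the gene spans chr2:27676440-27762957), Ppargc1a is chr5:51567727-51567975 on the minus strand, Esrrb is chr12:86360867-86361116 on the plus strand, and Esrrg is chr1:187651508-187651757 on the plus strand, before the second of its starts.
Rxra: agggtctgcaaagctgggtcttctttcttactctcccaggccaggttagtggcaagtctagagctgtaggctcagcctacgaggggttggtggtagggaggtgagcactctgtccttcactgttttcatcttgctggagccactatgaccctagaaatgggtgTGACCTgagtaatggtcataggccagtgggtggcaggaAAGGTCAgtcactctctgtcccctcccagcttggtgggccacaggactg
Ppargc1a: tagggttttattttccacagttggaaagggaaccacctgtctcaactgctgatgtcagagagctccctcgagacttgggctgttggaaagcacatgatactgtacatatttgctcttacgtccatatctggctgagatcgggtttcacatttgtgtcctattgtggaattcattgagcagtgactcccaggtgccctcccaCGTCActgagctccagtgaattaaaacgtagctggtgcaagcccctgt
Esrrb: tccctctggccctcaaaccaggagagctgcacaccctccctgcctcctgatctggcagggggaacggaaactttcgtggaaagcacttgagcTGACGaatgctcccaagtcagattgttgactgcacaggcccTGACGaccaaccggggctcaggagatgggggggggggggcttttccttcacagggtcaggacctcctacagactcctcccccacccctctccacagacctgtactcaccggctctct
Esrrg: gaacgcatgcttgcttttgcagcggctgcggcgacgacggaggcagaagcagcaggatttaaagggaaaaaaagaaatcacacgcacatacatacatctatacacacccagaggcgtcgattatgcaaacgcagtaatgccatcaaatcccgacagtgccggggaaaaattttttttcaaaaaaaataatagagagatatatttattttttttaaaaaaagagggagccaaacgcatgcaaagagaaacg

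In the Rxra stretch AAGGTCA begins 49 bases before the start, and AGGTCA also occurs on the opposite strand, read there as TGACCT, with its first printed base 87 bases before the start. A gene can have several annotated starts, so shares are given over genes, counting a gene when any of its windows of 250 bases holds the motif on either strand. Of the 27025 genes with a RefSeq window, 5.38% held AAGGTCA and 18.1% held AGGTCA, which counts the genes with AAGGTCA too. AGGTCA was found before a start of 2 of the 9 members that have a window, Rxra and Pparg. The longer ERR element TCAAGGTCA, before 0.466% of genes, and the DR1 element, an exact direct repeat of AGGTCA with 1 free base between, as a PPAR and RXR dimer binds, before 0.048%, were found before none of the 9 members. TGACG, before 23.0% of genes, was found before 4 of the 9, Ppargc1a, Esrrb, Ppara and Ppard, and the whole element TGACGTCA, before 2.03% of genes, before none of them. The 9 members have 17 windows and the 27025 genes 32851, so shares over genes are not matched for the number of starts. Over windows the shares were 20.8% for TGACG and 16.3% for AGGTCA. The Esrrg stretch holds none of these motifs, and a match is only a description of the letters, since which start the left ventricle used was not measured.

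Esrra was by far the most abundant of the 10 transcripts. In transcripts per 1000000 (TPM), which allow levels of different genes to be compared, its level over the 38 hearts ran from 30.7 to 60.3 with a median of 51.8. It lay above Rxra, the next in order, in 38 of 38 libraries. Rxra had a median of 8.68 TPM (5.59 to 10.8), and was above Ppard in 38 of 38 libraries. Ppard (median 7.06 TPM, 4.05 to 9.13) and Ppargc1a (median 6.72 TPM, 3.81 to 26.2) had no fixed order, since Ppard was the higher in 18 of 38. Ppargc1a exceeded Pparg in 32 of 38 libraries, with a median for Pparg of 3.98 TPM (0.742 to 7.92). Esrrb (median 3.11 TPM), Esrrg (2.85) and Ppargc1b (2.77) lay close together and changed places between mice, Esrrb being above Esrrg in 20 of 38 and Esrrg above Ppargc1b in 23 of 38. Nrip1 (median 1.82 TPM) was above Ppara (median 1.11 TPM), the lowest, in 34 of 38. Even Ppara had between 46 and 567 counts in each library.

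Within each family 1 paralog held most of the transcript pool on average. Esrra made up 89.3 ± 2.51% of the ERR transcripts (SD, n = 38), and never less than 84.5%. Ppard made up 58.7 ± 8.75% of the PPAR transcripts, with a lowest share of 41.6%, Pparg 31.0 ± 10.2% and Ppara 10.3 ± 4.17% (SD, n = 38). Pparg exceeded Ppard in 2 hearts, V2528 (7.92 against 6.68 TPM) and V2555 (5.58 against 5.07 TPM). Ppargc1a made up 72.1 ± 8.41% of the PGC-1 transcripts (SD, n = 38), and never less than 57.1%. The shares of the smaller paralogs differed between the group means, and these are descriptions with no test. Esrrg took 6.78 ± 1.07% of the ERR pool in non_failing (SD, n = 8) and 4.52 ± 2.02% in HFpEF+Veh hearts (SD, n = 8). Pparg took 27.2 ± 10.5% of the PPAR pool in non_failing and 36.8 ± 8.51% in HFpEF+Veh (SD, n = 8 each). Ppargc1b took 21.8 ± 5.30% of the PGC-1 pool in non_failing and 31.9 ± 9.59% in HFpEF+Veh (SD, n = 8 each). In each family the ranges of these groups overlapped.

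**Figure D1:**
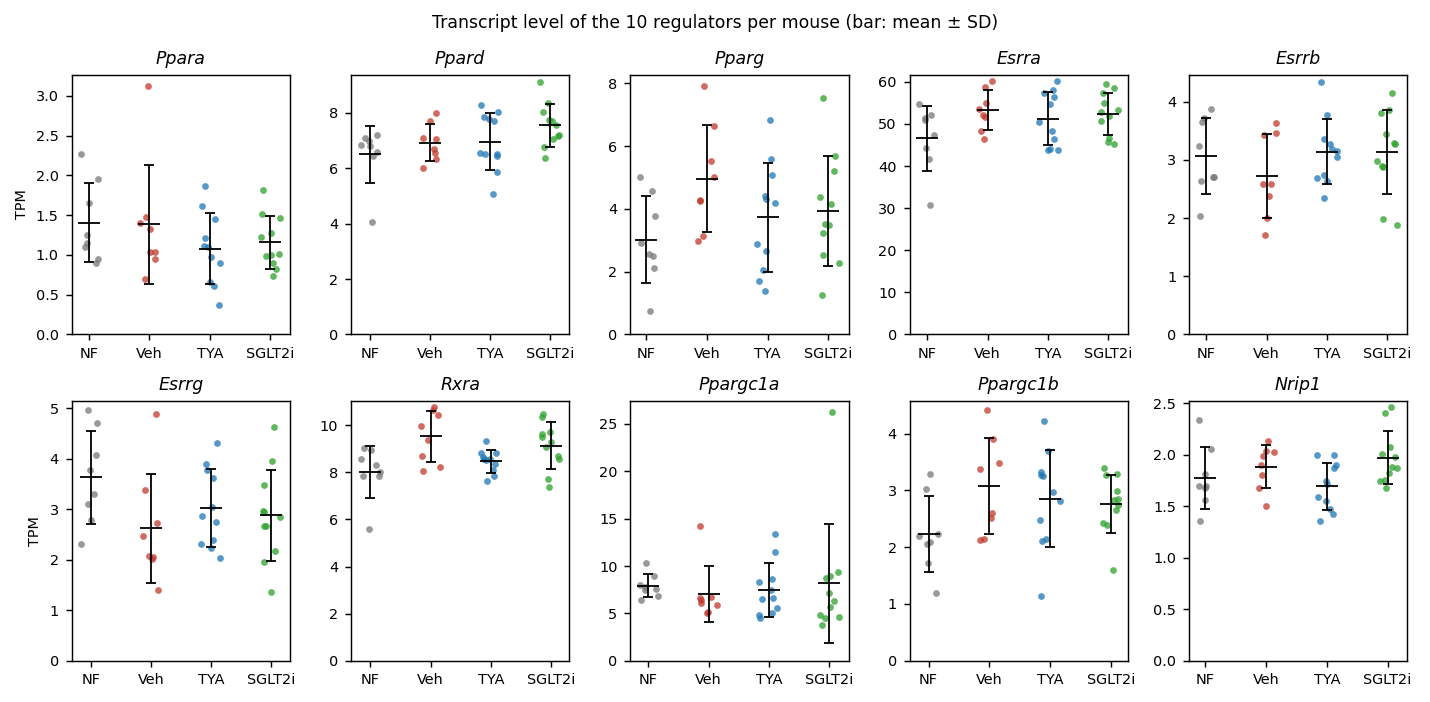
Transcript level of each regulator in TPM (vertical axis, from 0) in the 38 hearts, by group: NF, non_failing; Veh, HFpEF+Veh; TYA, HFpEF+TYA-018; SGLT2i, HFpEF+SGLT2i. Each point is 1 mouse and the bars give the mean ± SD; the groups overlap for every gene, and single hearts stand apart for Ppargc1a at 26.2 and 14.2 TPM and for Ppara at 3.13 TPM.

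Vehicle-treated HFpEF hearts were first compared with non_failing hearts, which asks what the model did to the regulators. None of the 10 passed an adjusted p of 0.05 in the edgeR quasi-likelihood test, where 3.15% of all 13765 genes did. At an unadjusted p under 0.05 there were 3, namely Rxra, Esrrg and Ppargc1b, against 15.9% of all genes. The largest differences on the log2 scale were those of Pparg (0.52), Esrrg (-0.52) and Ppargc1b (0.40), while the median of the 10 was -0.0013 beside 0.01 for all genes. In 5 members the estimate was above 0 and in 5 below. DESeq2 also called none of the 10 here, nor in the comparisons of the drugs with HFpEF+Veh and with each other.

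Of the PPAR receptors, Pparg had the largest difference. Its level in non_failing hearts was 0.742, 2.74 and 5.02 TPM (lowest, median, highest), and in HFpEF+Veh hearts 2.98, 4.65 and 7.92 TPM. The ranges overlapped between 2.98 and 5.02 TPM, with non_failing V2501 the lowest of all and HFpEF+Veh V2528 the highest. On the log2 scale Pparg was higher by 0.52, with an SE of 0.30 and an edgeR adjusted p of 0.404, and 8 of 8 vehicle hearts lay above the non_failing mean of log2 CPM (counts per 1000000). Ppara, the fatty acid receptor best known in heart muscle, differed by -0.02 (95% interval -0.53 to 0.49), and Ppard, which shares many of its target genes, by -0.01 (-0.20 to 0.17). The interval of Ppara was the wider of these, so the data limit a change of Ppard more closely than one of Ppara.

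Since PPARγ is also a protein of adipocytes and of vascular and immune cells, the markers of those cells are given beside it. The summed level of 8 endothelial markers was 2385 ± 398 TPM in non_failing and 3210 ± 474 TPM in HFpEF+Veh hearts (SD, n = 8 each), with ranges of 1925 to 3033 and 2696 to 4159, and Fabp4, a fatty acid binding protein found in capillary endothelium and in adipocytes, made up most of it with 1554 and 2232 TPM. The lowest edgeR adjusted p among the 8 endothelial markers was 0.146, that of Cd36. Cd36 is also on the list of PPAR targets described below. The summed level of the macrophage markers was 157 ± 28.4 and 197 ± 44.2 TPM (SD, n = 8 each). Of 8 white adipocyte markers, 2 had enough counts to be tested, Fabp4 and Plin4, and both were higher in HFpEF+Veh at an unadjusted p under 0.05, with a median log2 difference of 0.39 and none called. The defining markers Adipoq and Plin1 were near 0, at 0.137 and 0 TPM in non_failing and at 0.0768 and 0.0177 TPM in HFpEF+Veh. Of 5 brown adipocyte markers, 3 were tested, all under an unadjusted p of 0.05, and Cidea and Dio2 were called higher, while Cox7a1, a subunit of cytochrome c oxidase found in striated muscle too, was lower and not called (-0.29). The summed level of this list was 1739 ± 232 TPM in non_failing and 1513 ± 153 TPM in HFpEF+Veh (SD, n = 8 each). The 8 pericyte and smooth muscle markers summed to 257 ± 32.5 and 258 ± 39.6 TPM (SD, n = 8 each), with 5 higher and 3 lower, and the pericyte markers Rgs5 (-0.36) and Abcc9 (-0.46) were called lower. The summed level of 8 fibroblast markers was 533 ± 74.6 TPM in non_failing and 717 ± 196 TPM in HFpEF+Veh (SD, n = 8 each), with 7 of 8 higher and 2 called. The summed level of 10 cardiomyocyte markers was 32366 ± 3612 TPM in non_failing and 27464 ± 1698 TPM in HFpEF+Veh (SD, n = 8 each), with ranges of 25455 to 36147 and 24575 to 29552, and 4 of the 10 were called lower. In homogenates of bulk tissue, fewer cells of a type and less RNA per cell cannot be told apart, and the part of these shifts in the level of any regulator was not tested.

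Among the ERR receptors, the larger estimates were those of the less abundant pair. Esrrg, which is prominent in tissues with high oxidative demand, was at 2.32, 3.54 and 4.97 TPM in non_failing hearts (lowest, median, highest) and at 1.40, 2.27 and 4.88 TPM in HFpEF+Veh. In HFpEF+Veh, 7 of 8 hearts were below the non_failing mean in TPM and in log2 CPM, and 1, V2532, was nearly as high as the highest control. Esrrg differed by -0.52 on the log2 scale (SE 0.23, edgeR adjusted p 0.241), and without V2532 it was -0.75 with an adjusted p of 0.0348. Of the 38 fits that each left out 1 library, only this 1 called Esrrg. The estimates of those fits ran from -0.75 to -0.43, with an edgeR adjusted p up to 0.416. V2532 was the most deeply sequenced vehicle library, with 57.7 M counts (M for 1000000) against a median of 29.5 M over all libraries and a range of 21.5 to 59.3 M, and it also had the highest Ppara and Ppargc1a of its group. Esrrb differed by -0.26 (SE 0.14, adjusted p 0.346), with 6 of 8 vehicle hearts below the control mean in log2 CPM and 5 of 8 in TPM. With depth and the mitochondrial share of counts as covariates, a fit added after the data had been seen that called 7.8% of all genes, Esrrb was called at -0.33 (adjusted p 0.0343), Esrrg at -0.62 (0.0196) and Rxra at 0.15 (0.0333). Esrra differed by 0.06 (95% interval -0.10 to 0.22).

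Rxra, the obligate partner of the PPARs, was at 5.59, 8.15 and 9.02 TPM in non_failing hearts (lowest, median, highest) and at 8.03, 9.68 and 10.8 TPM in HFpEF+Veh. All 8 vehicle hearts lay above the control mean, while the ranges overlapped between 8.03 and 9.02 TPM. The log2 difference of 0.16 (SE 0.06) had an edgeR adjusted p of 0.107, and of 0.265 without V2507, the control with the lowest level. On log2(TPM + 1) with limma, Rxra was called in this comparison, with a difference of 0.23 and an adjusted p of 0.0492.

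The coactivators had estimates of opposite sign, and neither was called. Ppargc1a was at 6.37, 7.69 and 10.3 TPM in non_failing hearts (lowest, median, highest) and at 5.01, 6.29 and 14.2 TPM in HFpEF+Veh. Apart from V2532, at 14.2 TPM, the vehicle hearts lay between 5.01 and 6.78 TPM, all below the control mean of 7.92. The difference on the log2 scale was -0.25 (SE 0.26, edgeR adjusted p 0.684), and -0.44 without V2532, also not called. Ppargc1b was at 1.2, 2.14 and 3.28 TPM in non_failing and at 2.13, 3.00 and 4.41 TPM in HFpEF+Veh, a log2 difference of 0.40 (SE 0.19, adjusted p 0.288), with 7 of 8 vehicle hearts above the control mean in log2 CPM and 6 of 8 in TPM. Nrip1 differed by 0.01 (95% interval -0.19 to 0.21).

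The vehicle library V2523 held liver transcripts, with a summed level of 10 hepatocyte markers of 1253 TPM, while the other 7 vehicle libraries lay between 17.6 and 49.3 TPM. The non_failing libraries lay between 38.5 and 336 TPM. Against HFpEF+Veh, edgeR called 10 of 10 hepatocyte markers lower under TYA-018 (median -5.85 on the log2 scale) and 10 of 10 under empagliflozin (-5.72). These genes count in the shares of all genes called in those comparisons. Pparg, at 2.98 TPM, was lower in V2523 than in any other vehicle heart, and Ppargc1b, at 2.15 TPM, was seventh of the 8. Without it the vehicle means became 5.25 ± 1.61 TPM for Pparg and 3.20 ± 0.82 TPM for Ppargc1b (SD, n = 7), in place of 4.97 ± 1.69 and 3.07 ± 0.85 (SD, n = 8). For Esrrg the mean became 2.52 ± 1.12 TPM (SD, n = 7), in place of 2.63 ± 1.08. Without V2523, edgeR called no member in the 3 comparisons that involve HFpEF+Veh, and 4, 1 and 2 members were under an unadjusted p of 0.05, where 19%, 19.6% and 10.5% of all genes were in those fits.

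**Figure D2:**
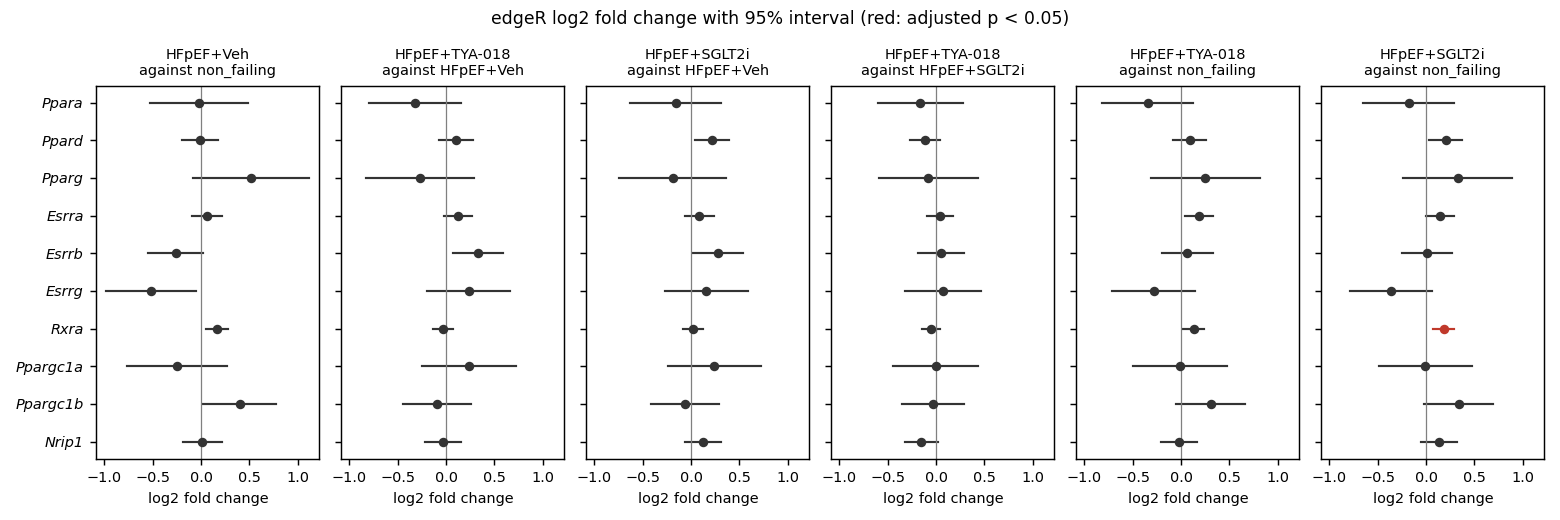
Log2 fold change of each regulator in the 6 comparisons (horizontal axis), with the 95% interval from edgeR as a line; red marks an adjusted p under 0.05. The intervals of Ppara, Pparg and Ppargc1a are the widest in every panel, and Rxra in HFpEF+SGLT2i against non_failing, at 0.18, is the only estimate in red.

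Treatment with TYA-018 was compared with vehicle to see whether HDAC6 inhibition altered the regulators. None of the 10 passed the adjusted edgeR test, where 1.93% of all genes did, and 1 was under an unadjusted p of 0.05, where 17.5% of all genes were. That member was Esrrb, whose level was 1.70, 2.59 and 3.63 TPM in HFpEF+Veh (lowest, median, highest) and 2.34, 3.16 and 4.33 TPM in HFpEF+TYA-018. The ranges overlapped widely, although 11 of 11 treated hearts were above the vehicle mean of log2 CPM. The log2 fold change was 0.33 (SE 0.13, adjusted p 0.162). With the added covariates it was 0.45 with an adjusted p of 0.00291, where 12.4% of all genes were called. Rxra differed by -0.03 (95% interval -0.14 to 0.07), Nrip1 by -0.03 (-0.22 to 0.16) and Esrra by 0.12 (-0.02 to 0.27). Ppara (-0.32, SE 0.23) and Pparg (-0.27, SE 0.27) had estimates below 0 and Ppargc1a (0.24, SE 0.24) one above, each with an interval that included 0. These estimates moved with single libraries. That of Ppara was -0.038 without V2532, that of Pparg -0.14 without V2528, and that of Ppargc1a 0.14 without HFpEF+TYA-018 V2549 and 0.43 without V2532, none of them called.

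The comparison of empagliflozin with vehicle asks the same of SGLT2 inhibition. None of the 10 passed the adjusted edgeR test against HFpEF+Veh, where 0.85% of all genes did, and 2 were under an unadjusted p of 0.05, where 10% of all genes were. Ppard was at 6.02, 6.86 and 7.99 TPM in HFpEF+Veh (lowest, median, highest) and at 6.37, 7.56 and 9.13 TPM in HFpEF+SGLT2i. The ranges overlapped, and 11 of 11 treated hearts were above the vehicle mean in log2 CPM. The log2 fold change was 0.22 (SE 0.08, adjusted p 0.311). Esrrb differed by 0.28 (SE 0.13, adjusted p 0.451), and by 0.35 with an adjusted p of 0.0460 with the added covariates, where 1.83% of all genes were called. Rxra differed by 0.02 (95% interval -0.09 to 0.12) and Esrra by 0.09 (-0.06 to 0.23).

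The estimate for Ppargc1a under empagliflozin moved with 1 heart of either group. V2562 stood at 26.2 TPM, while the other 10 hearts of the group lay between 3.81 and 9.37 TPM. The log2 fold change against HFpEF+Veh was 0.24 (SE 0.24, edgeR adjusted p 0.780), -0.065 without V2562, 0.43 without the vehicle heart V2532 and 0.12 without both, none of them called. V2562 had the highest Esrrg of its group, at 4.62 TPM, and the highest Esrrb, at 4.15 TPM. Its 45.1 M counts made it deeper than the median library. V2564 (59.3 M) and V2565 (51.8 M) of the same group were deeper still, with Ppargc1a at 8.75 and 6.29 TPM.

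The drugs were then set against each other, a comparison in which 0% of all genes passed the adjusted edgeR test. None of the 10 members did, and none was under an unadjusted p of 0.05, where 13.2% of all genes were. Ppara differed by -0.16 (95% interval -0.60 to 0.27), with TYA-018 the lower, and by -0.07 without V2562. Ppargc1a differed by -0.0042 (SE 0.22), and leaving out 1 library gave values from -0.10 without V2549 to 0.30 without V2562, none of them called. For Esrra the interval was -0.10 to 0.17 and for Rxra -0.15 to 0.04, while the interval of Pparg ran from -0.59 to 0.43. Nrip1 had a difference of -0.15 (SE 0.08, adjusted p 0.439).

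Against non_failing hearts, 1 member was called. Rxra rose in HFpEF+SGLT2i hearts, where it was at 7.37, 9.28 and 10.5 TPM (lowest, median, highest) against 5.59, 8.15 and 9.02 TPM in non_failing. All 11 treated hearts were above the control mean in log2 CPM and 7 of them exceeded the highest control in TPM. The log2 fold change was 0.18 (SE 0.05, edgeR adjusted p 0.0265), a call rate of 1 in 10 members beside 6.45% of all genes. The call did not hold without non_failing V2507, with a log2 fold change of 0.14 and an adjusted p of 0.121, nor without non_failing V2502, V2508 or V2509 or HFpEF+SGLT2i V2565 (adjusted p 0.0501 to 0.0617). It also did not hold with libraries scaled by total count alone (adjusted p 0.164), with limma on log2(TPM + 1) (0.0748) or with only the groups compared in the model (0.0895). A further 2 members, Ppard and Esrra, were under an unadjusted p of 0.05, so that 3 in all were, where 19.6% of all genes were. In HFpEF+TYA-018 hearts no member was called against non_failing, where 7.39% of all genes were. Here 2 members were under an unadjusted p of 0.05, Esrra (0.18, adjusted p 0.113) and Rxra (0.13, adjusted p 0.124), where 22% of all genes were. The 3 HFpEF groups share the non_failing hearts, and their values for Rxra, 0.16, 0.13 and 0.18, are therefore not independent. In the single test of any difference between the 4 groups, none of the members was called, where 9.5% of all genes were, and the lowest adjusted p was that of Rxra, at 0.0693.

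Genes that these receptors are known to induce were then described from 2 lists, which were chosen with earlier results of these data known. Counts of called genes from these lists are therefore descriptions and not an independent test. Of 35 listed PPAR target genes, 30 were tested. In HFpEF+Veh against non_failing hearts 12 of them rose and 1 fell, where 3.15% of all genes were called, with 28 of 30 above 0 and a median log2 fold change of 0.38 beside 0.01 for all genes. Angptl4, a secreted inhibitor of lipoprotein lipase, rose by 1.70 on the log2 scale (SE 0.33, edgeR adjusted p 0.00190), from 2.20 ± 0.899 TPM in non_failing to 7.54 ± 3.59 TPM in HFpEF+Veh (SD, n = 8 each). The thioesterase Acot2 (0.81, SE 0.14) and Cpt1b, which brings long-chain fatty acids to the mitochondrion in muscle (0.44, SE 0.08), rose as well. Pdk4, a kinase that holds back pyruvate oxidation, rose by 0.68 (SE 0.20, adjusted p 0.0457), a call held in 17 of the 38 fits that each left out 1 library and lost without V2523 (adjusted p 0.102). Lpl, which frees fatty acids from lipoproteins, fell by 0.38 (SE 0.10, adjusted p 0.0300), a call held in 32 of those 38 fits.

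Most of these targets also had estimates above 0 when the drugs were set against vehicle. Against HFpEF+Veh, 30 of 30 PPAR targets had an estimate above 0 under empagliflozin, with a median of 0.31, and 2 were called, where 0.85% of all genes were. They were Ucp3, a mitochondrial carrier induced by fatty acids, at 1.17 (SE 0.21, edgeR adjusted p 0.00129), and Pdk4, at 0.86 (SE 0.18, adjusted p 0.00865). Ucp3 went from 12.5 ± 2.34 TPM in HFpEF+Veh (SD, n = 8) to 26.3 ± 6.71 TPM in HFpEF+SGLT2i (SD, n = 11). Pdk4 went from 126 ± 45.2 to 215 ± 67.5 TPM (SD, n = 8 and 11). Without V2523, the vehicle library with liver transcripts, both were still called and were the only 2 genes called in the comparison, 0.0145% of all genes. Neither was called by limma on log2(TPM + 1), with adjusted p values of 0.104 for Ucp3 and 0.133 for Pdk4. Under TYA-018, 25 of 30 had an estimate above 0, with a median of 0.19, and 1, Ucp3, was called where 1.93% of all genes were (0.79, SE 0.21, adjusted p 0.0370), in 28 of the 38 fits that each left out 1 library. Angptl4 had 0.99 under empagliflozin (adjusted p 0.127) and 0.41 under TYA-018 (adjusted p 0.487), and Cpt1b 0.12 and -0.03. Between the drugs, 27 of 30 were lower under TYA-018, with a median of -0.15, and none was called by edgeR. At an unadjusted p under 0.05 there were 7, where 13.2% of all genes were, and DESeq2 called 2, where it called 1.34% of all genes. Against non_failing, 21 of 30 were called higher under TYA-018 and 23 of 30 under empagliflozin, with medians of 0.55 and 0.67, where 7.39% and 6.45% of all genes were called in either direction. In these comparisons 1 and 4 of 10 cardiomyocyte markers were called lower, and 9 and 8 of 10 hepatocyte markers, whose summed level was 8.35 to 28.7 TPM under TYA-018 and 13.6 to 26.3 TPM under empagliflozin, below the 38.5 to 336 TPM of non_failing. Against HFpEF+Veh, 10 of 10 hepatocyte markers were called lower under each drug, as given above with V2523. The part of any of these marker shifts in the targets' estimates was not tested.

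The 37 listed ERR targets hold genes of the citrate cycle, the respiratory chain and energy transfer, and also Etfa, Mb, Mfn1, Mfn2 and Perm1. They lay slightly below non_failing in HFpEF+Veh, with 32 of 37 estimates below 0 and a median of -0.12. The cardiomyocyte markers lay lower in the same comparison, with 9 of 10 below 0, a median of -0.31 and 4 called. Of the 37 ERR targets, 1 was called, near the 3.15% of all genes. This was Slc25a4, the heart form of the ADP/ATP carrier, which fell by 0.33 (SE 0.09, edgeR adjusted p 0.0292). Its call was lost without V2501, V2502, V2504, V2527 or V2530 (adjusted p 0.0562 to 0.0755). Against HFpEF+Veh, 36 of 37 were above 0 under TYA-018, with a median of 0.21, and 2 rose, where 1.93% of all genes were called. These were Cycs, encoding cytochrome c (0.37, SE 0.09, adjusted p 0.0149), and Slc25a4 (0.34, SE 0.08, adjusted p 0.0204), the latter not called without V2530 (adjusted p 0.0590). In the same comparison 8 of 10 cardiomyocyte markers were above 0, with a median of 0.14 and 4 under an unadjusted p of 0.05, while 8 of 8 fibroblast markers (median -0.21) and 7 of 8 endothelial markers (median -0.12) were below 0. None of these markers was called by edgeR. Under empagliflozin 34 of 37 were above 0, with a median of 0.20, and neither edgeR nor DESeq2 called any, while 5 were under an unadjusted p of 0.05, where 10% of all genes were. There 8 of 10 cardiomyocyte markers were above 0 (median 0.07) and 7 of 8 fibroblast markers below 0 (median -0.14), 3 of the latter at an unadjusted p under 0.05, and the part of the markers in the ERR targets' estimates was not tested in any of these comparisons. Scaling by total count alone moved the median of all genes by -0.14 under TYA-018 and brought the ERR targets' median down from 0.21 to 0.08, with none called. With limma on log2(TPM + 1) the median in HFpEF+Veh against non_failing was -0.04, with 14 of 37 above 0 in place of 5. Perm1, a muscle regulator induced by PGC-1 and ERR, differed by 0.03, 0.15 and 0.10 in the comparisons of HFpEF+Veh with non_failing and of TYA-018 and empagliflozin with HFpEF+Veh, and Tfam, which packages and transcribes mitochondrial DNA, by -0.19, 0.18 and 0.15. Neither gene was called.

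**Figure D3:**
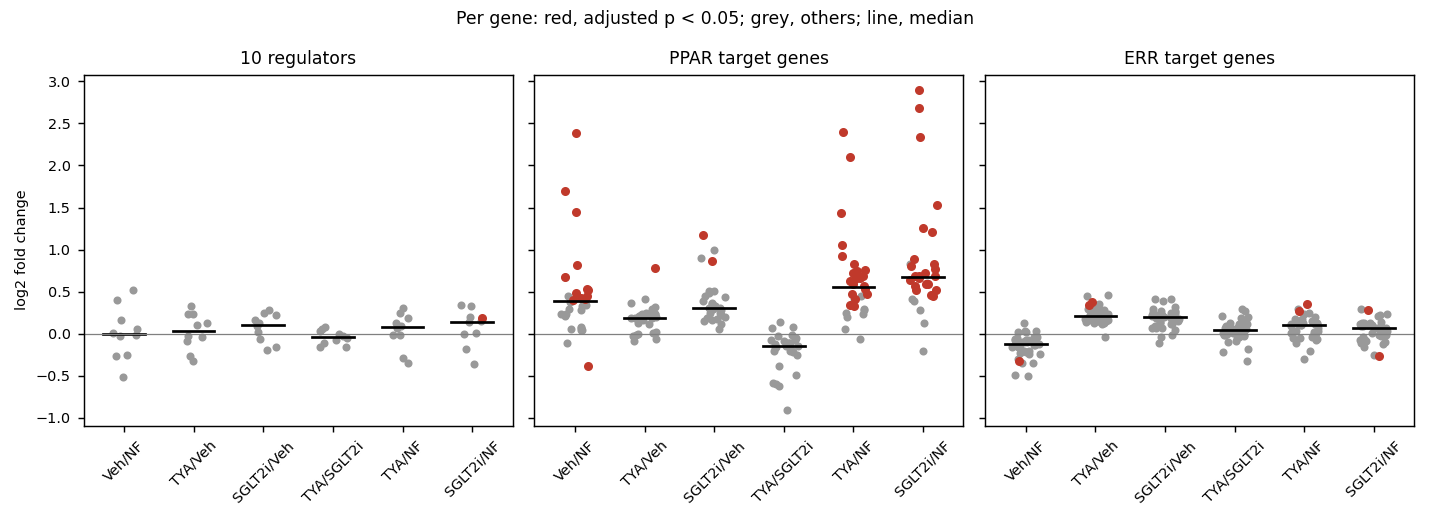
Log2 fold change (vertical axis) of each of the 10 regulators, 30 PPAR targets and 37 ERR targets in 6 comparisons, named as in the plot of levels. Red points passed an adjusted p of 0.05 and the black line is the median; the PPAR targets have medians of 0.38, 0.55 and 0.67 in the HFpEF groups against non_failing, where the regulators have medians of -0.0013, 0.08 and 0.14.

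Other regulators that work with the members were mostly without a call. Of 62 listed partners, coactivators, corepressors, upstream kinases and mitochondrial factors, 61 were tested. In HFpEF+Veh against non_failing 2 of them rose, a share close to the 3.15% of all genes: Rxrb, another RXR (0.24, SE 0.06, edgeR adjusted p 0.0231), and Prkag2, a regulatory subunit of AMP-activated kinase (0.32, SE 0.09, adjusted p 0.0423). The call of Rxrb was lost without V2503, V2507 or V2530 (adjusted p 0.0518 to 0.0605), and that of Prkag2 held in 19 of the 38 fits that each left out 1 library. Against non_failing Rxrb was also higher under TYA-018 (0.28, adjusted p 0.00199) and empagliflozin (0.33, adjusted p 0.000358). TYA-018 against HFpEF+Veh gave 1 call in 61, where 1.93% of all genes were called, Thrb, a thyroid hormone receptor (0.45, SE 0.11, adjusted p 0.0280), which had -0.30 in HFpEF+Veh against non_failing (adjusted p 0.191) and lost its call without V2529 or V2530 (adjusted p 0.0619 and 0.0605). Empagliflozin against HFpEF+Veh gave no call by edgeR or DESeq2.

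Several members varied widely between mice of the same group. The SD of log2 CPM within groups was 0.65 for Pparg, 0.51 for Ppara, 0.50 for Ppargc1a and 0.46 for Esrrg, and 0.10 for Rxra and 0.15 for Esrra. This variation was shared among part of the members. After the group means were removed, 15 of the 45 pairs of members were correlated over the 38 hearts (Pearson's r, permutation test within groups with 100000 resamples, adjusted p under 0.05 over 45 pairs), all 15 with a positive sign, and 13 by Spearman's rho. On log2(TPM + 1) in place of log2 CPM, 20 pairs passed the same threshold, 19 positive and 1 negative. Of the 15, 14 were among them. In log2 CPM the closest pair was Esrrb and Esrrg, with r = 0.78 and rho = 0.74 (permutation p 1e-05, the smallest the resamples can give, adjusted p 0.000112). Without the 2 hearts farthest from the median of Esrrb, r was 0.76. Esrrg went with Ppargc1a at r = 0.70 and rho = 0.64, falling to 0.57 without the 2 farthest hearts, and with Ppara at r = 0.69 and rho = 0.63. Ppara went with Ppargc1a at r = 0.63 and rho = 0.69, and Esrrb with Rxra at r = 0.67 and rho = 0.66. The permutation p of these 4 pairs, adjusted over the 45, lay between 0.000112 and 0.000270 for r and between 0.000450 and 0.00108 for rho.

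Esrra, the most abundant receptor, went with Esrrb at r = 0.56 and rho = 0.54 (adjusted permutation p 0.00174 and 0.00607) and with Rxra at r = 0.51 and rho = 0.45 (0.00769 and 0.0252). Ppara went with Ppard at r = 0.45 and rho = 0.35 (0.0346 and 0.137), but at 0.24 without the 2 hearts farthest in Ppara. In log2 CPM Pparg had an r between -0.31 and 0.08 with the other 9, none of them past the threshold. On log2(TPM + 1) its r with Nrip1 was -0.42. Ppargc1b went with Ppard at r = 0.54 and rho = 0.34 (adjusted permutation p 0.0142 and 0.156), but only at 0.23 without the 2 hearts farthest in Ppard, so this relation rested on them. Its r with its paralog Ppargc1a was 0.18. In log2 CPM Nrip1 went with Esrrg alone, at r = 0.51 and rho = 0.47 (adjusted permutation p 0.00781 and 0.0252). On log2(TPM + 1) its r was 0.59 with Esrrg, 0.45 with Ppargc1a and 0.43 with Esrrb.

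**Figure D4:**
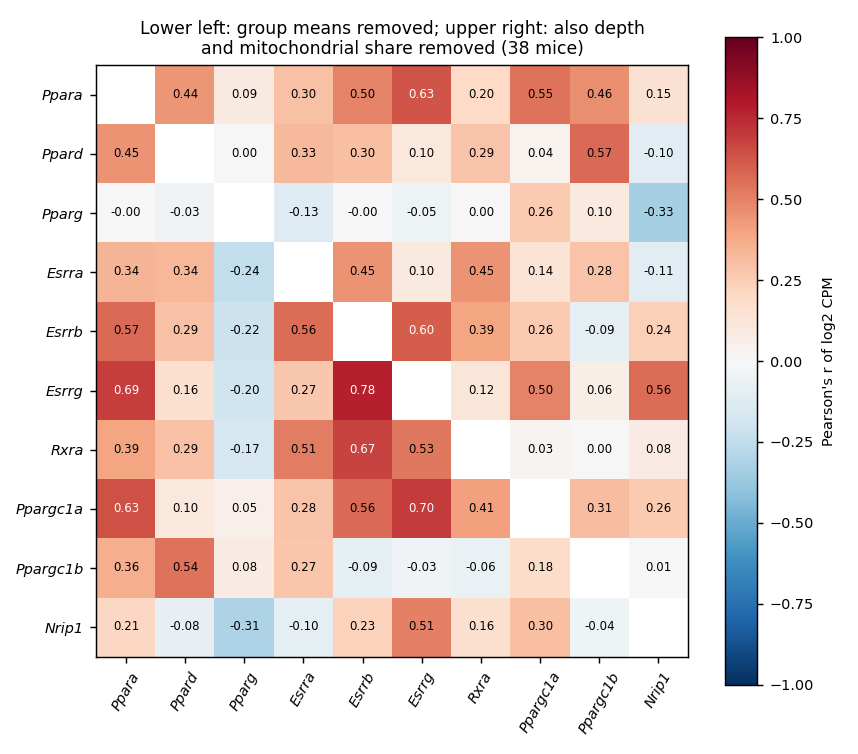
Pearson's r of log2 CPM for each pair of regulators over 38 hearts (colour scale from -1 to 1), after removal of group means (lower left) and of depth and the mitochondrial share as well (upper right). Esrrb and Esrrg have the highest value in the lower left, 0.78, which is 0.60 in the upper right, and Pparg stays between -0.31 and 0.08 in the lower left.

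Depth and the share of counts from mitochondrially encoded genes varied with the same members. Within groups, Esrrb had r = -0.70 with the mitochondrial share, Rxra -0.55, Esrrg -0.55 and Ppargc1a -0.49, and with log2 of the total count these were 0.46, 0.54, 0.58 and 0.48 (n = 38). With both removed, a calculation added after the data had been seen, 8 of the 45 pairs remained past the threshold, all among the 15. Esrrb and Esrrg kept r = 0.60 (adjusted p 0.00315), Ppara and Esrrg 0.63 (0.000450), Ppara and Ppargc1a 0.55 (0.00225) and Esrrg and Ppargc1a 0.50 (0.0159). The pair of Rxra and Ppargc1a went from 0.41 to 0.03, and that of Rxra and Esrrg from 0.53 to 0.12. V2532 and V2562 were the hearts highest in Ppargc1a in TPM. With both left out, r was 0.73 for Esrrb and Esrrg and 0.56 for Esrrg and Ppargc1a. In that setting 12 of the 45 pairs passed the threshold, 10 of them among the 15.

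**Figure D5:**
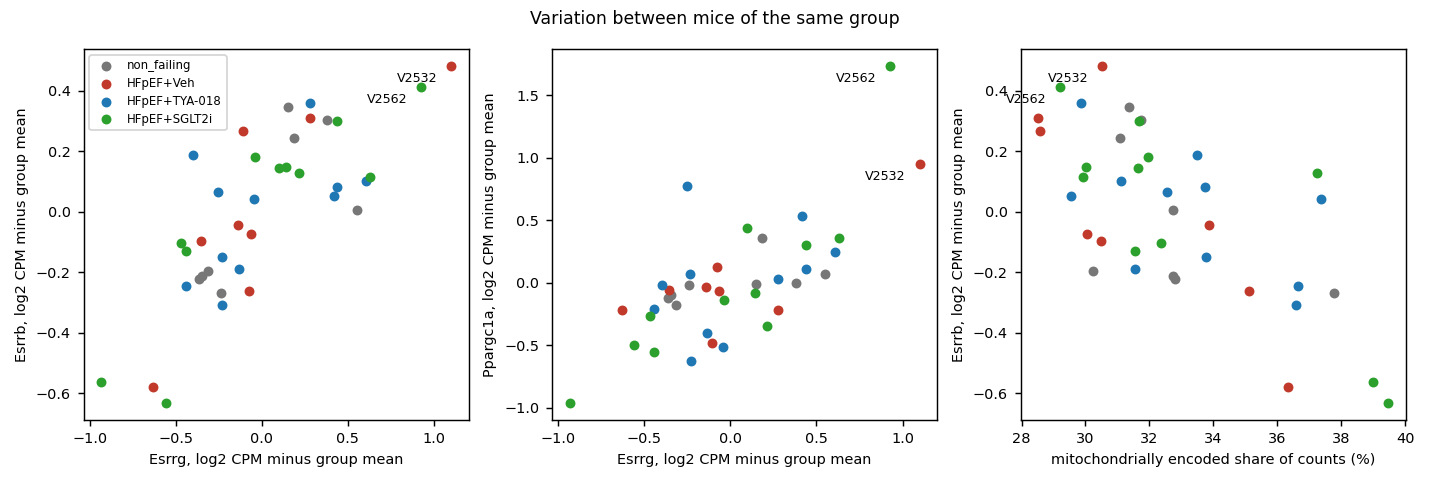
Variation between hearts of the same group: log2 CPM minus the group mean of Esrrb and of Ppargc1a against that of Esrrg, and Esrrb against the share of counts from mitochondrially encoded genes in percent, with each point 1 heart coloured by group. V2532 and V2562 lie at the upper end of the first panels, where r is 0.78 and 0.70, and Esrrb runs downward along the mitochondrial share in the last.

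The genes outside the list whose levels followed a member most closely were taken over the same 38 hearts after removal of the group means, as a description with no test. For Esrrg these were Hsdl2 (r = 0.94), Cdh2 (0.93), which encodes N-cadherin of the intercalated disc, and Lpgat1 (0.93). For Esrrb they were Mtfr1l (0.92), Txn2 (0.91), the mitochondrial thioredoxin, and Phospho1 (0.91). Ppargc1a was followed by Dnajb4 (0.84), Mypn (0.84), a sarcomere protein, and Adra1a (0.84), an adrenergic receptor. Esrra was followed by Agpat1 (0.83), Tbrg4 (0.78) and Mrps5 (0.77), a protein of the mitochondrial ribosome, and Ppara by Pptc7 (0.81), Ppp1r12b (0.81) and Dlst (0.80), a subunit of a citrate cycle enzyme. For Ppard they were Rnf123 (0.81) and Prr12 (0.76), and for Rxra Rap1gap2 (0.77), Gaa (0.76) and Akt1s1 (0.76). The remaining members had looser company: Ppargc1b with 5830417I10Rik (0.77), Nav2 (0.76) and Gm22 (0.75), Pparg with Srsf3 (0.65) and Thbd (0.62), an endothelial receptor of thrombin, and Nrip1 with Ebf2 (0.63), Arl6 (0.62) and 8030462N17Rik (0.62). The part of depth and cell makeup in these values was not tested, and nothing is drawn from them about shared control.

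The deposited effective length of a gene, averaged over its transcripts, depends on which transcripts are present and also on the fragment lengths and bias corrections of the library, and these values cannot tell the sources apart. A single library, V2562, had the longest value for 6 of the 10 members, Ppara, Ppard, Esrrb, Esrrg, Rxra and Nrip1. Over 10 members and 6 comparisons, 1 difference passed an adjusted p of 0.05. Ppargc1b had a mean of 2557 ± 194 bases in HFpEF+TYA-018 and 2904 ± 224 bases in HFpEF+SGLT2i hearts (SD, n = 11 each), with ranges of 2209 to 2841 and 2614 to 3382 that overlapped. The log2 difference was -0.18 (two-sided permutation test, p 0.000380, adjusted p 0.0228). Between these groups 9 of the 10 members were shorter under TYA-018, and 4 others were under an unadjusted p of 0.05 in the same permutation test, Ppara (0.0217), Rxra (0.0327), Ppard (0.0468) and Esrrb (0.0473), so the direction was not particular to Ppargc1b. Against non_failing hearts, at 2816 ± 182 bases (SD, n = 8), the TYA-018 group differed by -0.14 (exact permutation test, p 0.00963, adjusted p 0.289). In TPM, which divides by this length, Ppargc1b was at 2.85 ± 0.85 in HFpEF+TYA-018 and 2.76 ± 0.51 in HFpEF+SGLT2i (SD, n = 11 each), and in counts its log2 fold change between the drugs was -0.03 (SE 0.16). Ppargc1a, by contrast, had the steadiest length of the 10, with a ratio of 1.12 between the longest and the shortest library, and Esrrg the least steady, at 1.70.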

How the data were processed

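Total RNA from the left ventricle of 38 mice, 1 library each, was sequenced after poly(A) selection. The authors quantified it with Salmon (1.6.0, per the submitters' processing notes) and deposited gene tables of expected counts, TPM and effective length in bases. The study's methods name mouse transcripts of GENCODE on GRCm38.p6 as the reference, and the gene identifiers are those of mouse, while the notes name a human build. Libraries held 21.5 to 59.3 M counts (M for 1000000), and no column was left without a sample. Nothing in the labels pairs mice, and whether they were housed or processed in batches is not given in the sources used here.

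Expected counts were rounded to whole numbers and tested in R 4.3.3 with edgeR 4.0.16 (TMM scaling, filterByExpr, quasi-likelihood F test) in 1 model of the 4 groups, with 6 comparisons and an omnibus test, adjusted by Benjamini-Hochberg over the 13765 genes kept. An adjusted p under 0.05 was called. Levels between genes were compared in TPM. Log2 CPM used a prior count of 2. Correlations between members used 100000 permutations within groups, and effective lengths a permutation test, exact where a group had 8 mice. Alternatives were DESeq2 1.42.0, limma 3.58.1 on log2(TPM + 1) and log2(TPM + 0.1), other scalings, an offset for length, no filter, models of only the groups compared, mitochondrial genes left out and each library left out. The fits without V2532 and V2562, and with the mitochondrial share and depth as covariates, were added after the data had been seen. The scripts were tested on simulated counts. For changes placed in HFpEF+Veh against non_failing, edgeR recovered 30% at 1.25-fold, 56% at 1.5-fold and 86% at 2-fold. A member without a call can therefore still have changed.

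The 10 members and all gene lists were chosen with earlier results of these data known. Of the list genes, those named were Pdk4, Angptl4, Cpt1b, Perm1 and Tfam whatever their values, and in each of the 3 comparisons of HFpEF+Veh with non_failing and of the drugs with HFpEF+Veh, the called genes with the 3 smallest p in each direction among PPAR targets, ERR targets and other regulators, leaving out genes whose mean log2 CPM was under 1. The 3 genes most like each member were those with the highest Pearson's r of log2 CPM after group means were subtracted. Some genes that these rules name are not reported here. Promoter sequences were taken from RefSeq (GRCm38.p6) by symbol, where 9 of the 10 members matched, and motifs were searched on both strands over 250 bases. Figures were drawn with matplotlib 3.10.9 and permutations run with scipy 1.17.1.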

Additional observations from a re-analysis of the deposited data

Results flagged for a closer look

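In groups of 8 hearts, a member's highest or lowest TPM was compared with the nearest other heart, and 4 of the 20 groups tested had a gap above Dixon's 95% critical value for 8 samples, where chance gives about 1 in 20 groups. In HFpEF+Veh, V2532 stood at 3.13 TPM for Ppara, with the next heart at 1.47, and at 14.2 TPM for Ppargc1a, with the next at 6.78. In non_failing, V2507 stood at 4.05 TPM for Ppard, with the next heart at 6.45, and at 5.59 TPM for Rxra, with the next at 7.82. V2507 also had the highest mitochondrial share of its group, 37.8%, and V2532 the highest depth of its group, and the part of either in these values was not tested. HFpEF+SGLT2i V2562, at 26.2 TPM of Ppargc1a, is in a group of 11 to which the rule was not applied.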

How the results depend on the processing

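No paired analysis was possible because no mouse number occurs in more than 1 group. Leaving out 1 library at a time, 671 of the counts recomputed stayed within 1.5 times the reported count and 53 did not, and under the other settings 162 did and 46 did not. The fit with the covariates called more of all genes as well, 7.8%, 12.4%, 1.83%, 0.341%, 10.6% and 8.99% in HFpEF+Veh against non_failing, TYA-018 and SGLT2i against HFpEF+Veh, between the drugs, and TYA-018 and SGLT2i against non_failing, and its counts are to be set beside these shares. All values here are log2 differences or counts of called genes, and the cause of a shift was not tested. Members close to 0 changed sign with the scaling. With library size alone, Ppara and Ppard in HFpEF+Veh against non_failing were 0.0361 and 0.0484, Ppard and Esrra in TYA-018 against HFpEF+Veh -0.0235 and -0.0025, Rxra in SGLT2i against HFpEF+Veh -0.0591 and Esrra between the drugs -0.0116. With a length offset, Nrip1 in HFpEF+Veh against non_failing was -0.0175, Ppargc1b in TYA-018 against HFpEF+Veh 0.0134 and between the drugs 0.0903, and Ppargc1a in SGLT2i against non_failing 0.0343. With limma on log2(TPM + 1) and log2(TPM + 0.1), Ppard in HFpEF+Veh against non_failing was 0.0873 and 0.0956, Esrra in TYA-018 against HFpEF+Veh -0.0476 and -0.0482, in SGLT2i against HFpEF+Veh -0.0026 in both and between the drugs -0.045 and -0.0456, and Rxra in SGLT2i against HFpEF+Veh -0.0355 and -0.0375. Between the drugs Ppargc1b was 0.0001 with the former and Ppargc1a 0.0043 with the latter. Without V2532 and V2562, Nrip1 and Perm1 in HFpEF+Veh against non_failing were -0.0081 and -0.048, Ppara in SGLT2i against HFpEF+Veh 0.0245, Ppargc1a between the drugs 0.3052 and Esrrb in SGLT2i against non_failing -0.032. With the mitochondrial share and depth as covariates, Ppargc1a was 0.1343 between the drugs and 0.0399 in TYA-018 against non_failing, and Perm1 in HFpEF+Veh against non_failing -0.0169. Of the members, 0 were called in SGLT2i against non_failing with library size alone, a length offset, limma or only those groups in the model. In HFpEF+Veh against non_failing 1 was called with limma on log2(TPM + 1) and without V2532 and V2562, and 3 with the covariates, which also gave 1, 1 and 2 in TYA-018 and SGLT2i against HFpEF+Veh and TYA-018 against non_failing. The omnibus test called 1 without V2532 and V2562 and 3 with the covariates, and 8 correlated pairs were left with depth and mitochondrial share removed. Of the PPAR targets in TYA-018 against HFpEF+Veh, 0 were called with a length offset or limma, 2 with DESeq2, 3 with no filter and 14 with the covariates, and in SGLT2i against HFpEF+Veh 0 with limma, 4 with no filter, 1 with only those groups in the model and 13 with the covariates. Between the drugs DESeq2 called 2. Of the ERR targets in HFpEF+Veh against non_failing, 0 were called with library size alone or no filter, 2 with limma on log2(TPM + 1) and 5 with the covariates, in TYA-018 against HFpEF+Veh 0 with library size alone or limma, 1 with only those groups and 23 with the covariates, and in SGLT2i against HFpEF+Veh 3 with the covariates. Of the other regulators in HFpEF+Veh against non_failing, 1 was called with a length offset or no filter and 6 with the covariates, and in TYA-018 against HFpEF+Veh 7 with library size alone, 2 with DESeq2 or no filter, 0 with limma or only those groups and 9 with the covariates. Leaving out 1 library gave, in HFpEF+Veh against non_failing, -0.3053 to 0.1306 for Ppara, -0.0748 to 0.0154 for Ppard, -0.0393 to 0.0678 for Nrip1 and -0.0514 to 0.076 for Perm1, in TYA-018 against HFpEF+Veh -0.0657 to 0.0009 for Nrip1, -0.1518 to 0.0094 for Ppargc1b and -0.0688 to 0.0068 for Cpt1b, and in SGLT2i against HFpEF+Veh -0.2557 to 0.1236 for Ppara, -0.065 to 0.4309 for Ppargc1a and -0.1262 to 0.0413 for Ppargc1b. It gave, between the drugs, -0.1775 to 0.0504 for Pparg, -0.1023 to 0.3019 for Ppargc1a and -0.0765 to 0.0591 for Ppargc1b, in TYA-018 against non_failing -0.1086 to 0.044 for Ppargc1a and -0.0708 to 0.0327 for Nrip1, and in SGLT2i against non_failing -0.3129 to 0.0697 for Ppargc1a and -0.0365 to 0.0659 for Esrrb. The members called then numbered 0 to 1 in each HFpEF group against non_failing and in the omnibus test, the ERR targets 0 to 1 in HFpEF+Veh against non_failing and 1 to 2 in TYA-018 against HFpEF+Veh, the PPAR targets 0 to 2 and 2 to 4 in TYA-018 and SGLT2i against HFpEF+Veh, and the other regulators 0 to 2 in HFpEF+Veh against non_failing and in TYA-018 against HFpEF+Veh.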
